A study of Mus musculus with 62 samples.

Results

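Neocortex RNA from female mice that had received melanoma cells that do not cause cachexia (NCAC) was compared with that of mock-injected mice (Con, called mock here), both taken 2 weeks after the injection. The 10 libraries, 5 of each group, are those whose column titles end in NCAC2wk or Con2wk, out of 62 libraries in the whole series. The series also holds mice injected with melanoma cells that cause cachexia (CAC) and 3 later times, 4, 6 and 8 weeks. All mice were 2 months old. The design text gives an athymic nude strain for the host, and the sample labels give C57BL6/J for every group, so the strain is uncertain. No melanoma line is named, and no weight or tumour size accompanies the labels. Libraries of a group are described as biological replicates, and the animals are not named. P-values therefore measure the spread between samples, pooled over the 12 groups of the series unless stated otherwise.

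Cachexia is a loss of muscle and fat that accompanies many cancers and that feeding does not fully reverse. A tumour that grows without causing cachexia serves as the control for the presence of a tumour as such. The neocortex is the layered outer sheet of the forebrain. It holds glutamatergic projection neurons, inhibitory interneurons, glia and a dense capillary bed, and signals from the periphery reach it through vessels, the choroid plexus, hormones and nerves.

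The estimated depth of the 10 libraries was 45.3 to 50.7 M reads (megareads), and all 10 carry lane 3 in their labels. The cortical label was met by all 12 excitatory cortical neuron markers, whose summed level was 4305 to 5558 TPM (a transcript abundance corrected for gene length and scaled to the same total in each library) in NCAC and 2885 to 5380 TPM in mock. Mock replicate 5 stood apart. Its summed pituitary markers came to 2811 TPM against 2.67 to 7.25 TPM in the other 9 libraries, its hypothalamus markers to 1195 TPM against 24.5 to 178 TPM, and its thalamus markers to 603 TPM against 99.5 to 111 TPM. This library also had the lowest summed excitatory markers. Counts of calls and the differences of most named genes are therefore given with all 10 libraries and again without mock replicate 5, and non-overlap is judged over all 10. Albumin RNA (Alb) was at 20.4, 6.56 and 2.45 TPM in mock replicates 5, 2 and 3 and at most 0.172 TPM in the other 7 libraries. Choroid plexus markers summed to 572 to 2827 TPM in NCAC, to 1429 TPM in mock replicate 1 and to 233 to 461 TPM in the other mock libraries.

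More genes were higher than lower in NCAC on the TPM scale. Of 14494 genes tested, 851 (5.87%) were higher and 411 (2.84%) lower at an adjusted p under 0.05. Without mock replicate 5 there were 647 higher (4.46%) and 156 lower (1.08%). The fits shared 632 genes with the same direction, 488 higher and 144 lower. A further 630 genes passed only with mock replicate 5, 363 higher and 267 lower, and 171 passed only without it, 159 higher and 12 lower. The differences were small: the median absolute log2 difference of the 632 shared genes was 0.26, and 1 in 10 exceeded 0.49 (the unit is log2(TPM + 1) throughout). Every NCAC library lay above every mock library for 404 genes (2.79%) and below every mock library for 186 genes (1.28%). Among the shared calls, these were 192 of the 488 higher and 55 of the 144 lower genes. Protein-coding genes made up 468 of the higher and 127 of the lower shared calls, out of 13227 tested. Long noncoding RNAs made up 2 and 12 of them, out of 637 tested, beside 488 and 144 out of all 14494 genes. The genes that rose were more abundant, with a median mock level of 71.9 TPM against 17.4 TPM over all genes tested, and those that fell were less abundant, at 9.84 TPM.

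These counts depended on single libraries and on the spread used. Leaving out NCAC replicates 1 to 5 in turn gave 323, 96, 1258, 1093 and 128 higher and 125, 33, 395, 807 and 45 lower genes. Leaving out mock replicates 1 to 5 gave 440, 437, 549, 951 and 647 higher and 412, 227, 143, 524 and 156 lower. There were 113 genes, 88 higher and 25 lower, that passed in the fit of all libraries and in each of the 10 fits without 1 library. When only the 10 libraries were fitted, so that the other groups lent no information on the spread, 7 genes passed, all higher, by name Kcnj13, Wfdc2, Hrh3, Msx1, Aqp1, Enpp2 and Prr32, and 3143 had an unadjusted p under 0.05. Of the 7, Kcnj13, Aqp1 and Enpp2 are on the list of choroid plexus markers described below. Rescaling the libraries by a trimmed mean (TMM) left the count of higher genes at 849 and raised the lower ones to 815, which moved the share of higher genes among the calls from 67.4% to 51.0%. With voom on reads estimated from the TPM values the excess turned, to 627 higher and 863 lower genes.

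**Figure D1:**
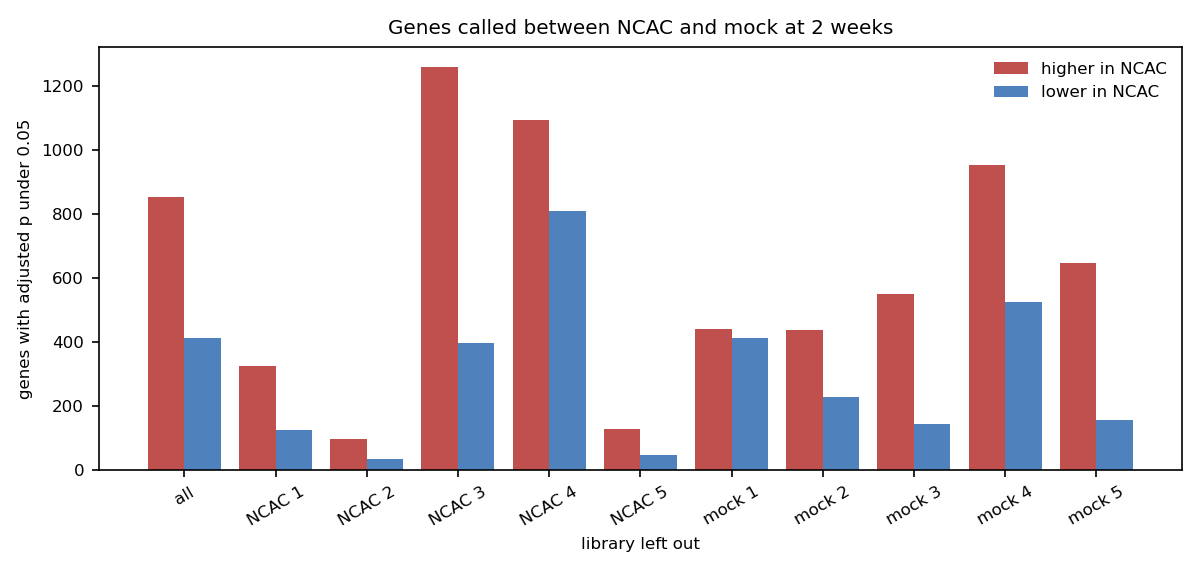
Number of genes with an adjusted p under 0.05 that were higher (red) or lower (blue) in NCAC than in mock at 2 weeks, with all libraries and with each of the 10 libraries left out. The bars for NCAC replicates 2 and 5 are the shortest, with 96 and 128 higher genes, and mock replicate 5 gives 647 higher and 156 lower.

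The 15 genes with the largest rise among those called in both fits were Kl, Ciart, Tcap, Mthfd1l, Prdm8, Net1, Sstr4, Sv2b, Pde1a, Dbp, Chrm1, Cdkl4, Mal2, Ak8 and Krt73. Their ratio of TPM + 1, NCAC to mock, was 1.42 to 2.56, which understates the fold of low genes. The groups did not overlap for 11 (against 2.79% of all genes), but picking the 15 by their difference in these libraries favours non-overlap. Of these 15 genes 8 passed in each of the 10 fits without 1 library: Tcap, Mthfd1l, Prdm8, Sv2b, Pde1a, Chrm1, Mal2 and Krt73.

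Sv2b (ENSMUSG00000053025, chromosome 7, 75114894 to 75309262, minus strand, mm10), which encodes a glycoprotein of synaptic vesicles, was measured at 200.3, 173, 154, 142 and 176 TPM in NCAC replicates 1 to 5 and at 101, 125, 124, 136 and 94.1 TPM in mock replicates 1 to 5. All NCAC libraries were above all mock libraries, and mock replicate 5 was the lowest. The difference was 0.54 ± 0.11 (SE), adjusted p = 0.0037, and without mock replicate 5 it was 0.47 (adjusted p = 0.015). Pde1a, a phosphodiesterase activated by calmodulin, was at 108, 95.6, 87.8, 89 and 109 TPM in NCAC and 64.5, 75.5, 75.5, 75.7 and 48.6 TPM in mock, again with no overlap. Its difference was 0.54 ± 0.11 (SE), adjusted p = 0.0043, and 0.42 (adjusted p = 0.022) without mock replicate 5.

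Chrm1 (chromosome 19, 8663789 to 8683587, plus strand), the M1 muscarinic acetylcholine receptor of cortical pyramidal neurons, was at 101, 93.2, 84.3, 82.9 and 97.1 TPM in NCAC and at 58.6, 67.3, 71.2, 82.7 and 44.8 TPM in mock. NCAC replicate 4, the lowest of its group, and mock replicate 4, the highest of its group, nearly met at 82.9 and 82.7 TPM. The difference was 0.52 ± 0.09 (SE), adjusted p = 0.0007, and 0.39 (adjusted p = 0.0071) without mock replicate 5. Mal2, a membrane protein of vesicle traffic, was at 203, 205, 169.6, 159.6 and 199 TPM in NCAC and 113, 144, 131, 153 and 117 TPM in mock, a difference of 0.51 ± 0.09 (SE), adjusted p = 0.0007, or 0.47 (adjusted p = 0.007) without mock replicate 5. Sstr4, a somatostatin receptor, rose by 0.54 ± 0.14 (SE), adjusted p = 0.013, or 0.49 (adjusted p = 0.035) without mock replicate 5, with overlap between NCAC replicate 2 and mock replicate 3, and lost its call without NCAC replicate 5.

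**Figure D2:**
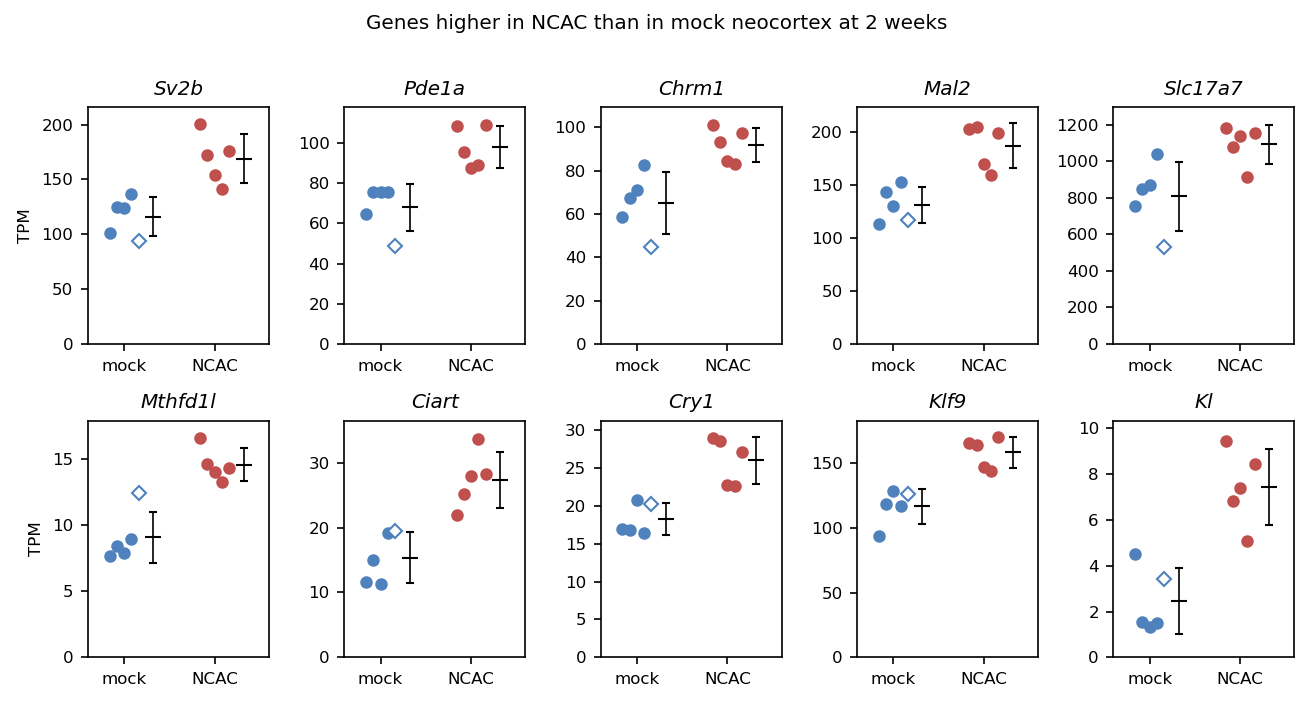
TPM of 10 genes that were higher in NCAC (red) than in mock (blue) at 2 weeks, 1 point per library, with the mean and SD of 5 libraries beside them; the open diamond is mock replicate 5. For Slc17a7 NCAC replicate 4 (912 TPM) lies below mock replicate 4 (1042 TPM), and for the other genes drawn the groups do not overlap.

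Mthfd1l (chromosome 10, 3973118 to 4167081, plus strand), a mitochondrial enzyme of folate metabolism, was at 16.6, 14.6, 14, 13.3 and 14.3 TPM in NCAC and 7.68, 8.44, 7.91, 8.91 and 12.4 TPM in mock, where replicate 5 was the highest. The difference was 0.64 ± 0.13 (SE), adjusted p = 0.0044, and it was larger without that library, 0.75 (adjusted p = 0.0033). Tcap, known as a protein of the muscle Z-disc, was at 18.2, 22.6, 23.2, 17.5 and 29.5 TPM in NCAC and 9.16, 12.5, 13.4, 19.5 and 9.38 TPM in mock, with mock replicate 4 inside the NCAC range. It differed by 0.78 ± 0.17 (SE), adjusted p = 0.007, or 0.69 (adjusted p = 0.024) without mock replicate 5. Prdm8, a transcriptional repressor, rose by 0.59 ± 0.12 (SE), adjusted p = 0.005, and by 0.46 (adjusted p = 0.025) without mock replicate 5. Net1, an exchange factor for the GTPase RhoA, rose by 0.56 ± 0.15 (SE), adjusted p = 0.017, or 0.62 (adjusted p = 0.019) without mock replicate 5, without overlap, and lost its call without NCAC replicate 2 or 5. Cdkl4, a kinase, rose by 0.51 (adjusted p = 0.011), or 0.42 (adjusted p = 0.037) without mock replicate 5. Krt73, a keratin gene at 0.814 to 2.68 TPM, rose by 0.50 (adjusted p = 0.0039), or 0.42 (adjusted p = 0.018) without mock replicate 5. The adenylate kinase gene Ak8, at 1.24 to 3.78 TPM, rose by 0.51 (adjusted p = 0.034), or 0.57 (adjusted p = 0.032) without mock replicate 5. Call losses for Cdkl4 came without NCAC replicate 2, and for Ak8 without NCAC replicates 1, 2 or 5 or mock replicates 1 or 3.

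Of 12 markers of excitatory cortical neurons 5 rose (against 5.87% of all genes) and none fell with all libraries. The median difference was 0.37 against 0.02 over all genes tested. Without mock replicate 5, 1 rose (against 4.46% of all genes), the median was 0.23, and 11 of the 12 differences were above 0. Slc17a7, the vesicular glutamate transporter of these neurons, was at 1181, 1079, 1140.0, 912 and 1155 TPM in NCAC and 758, 846, 870.1, 1042 and 529 TPM in mock. Mock replicate 4 exceeded NCAC replicate 4, and mock replicate 5 was the lowest of all. The difference was 0.46 ± 0.09 (SE), adjusted p = 0.0035, and 0.32 (adjusted p = 0.017) without that library, and it passed in every fit without 1 library.

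Tbr1, a transcription factor of deep-layer neurons, was at 66.2, 62.4, 68.3, 51.8 and 66.3 TPM in NCAC and 39.2, 51.4, 55.9, 58.9 and 30.5 TPM in mock, a difference of 0.44 ± 0.11 (SE), adjusted p = 0.012, and 0.30 (adjusted p = 0.054) without mock replicate 5. Fezf2, which specifies subcortical projection neurons, differed by 0.55 with all libraries (adjusted p = 0.029) and lost its call without any 1 of NCAC replicates 1, 2 and 5 and mock replicates 1 and 5. Of 11 deep-layer genes 4 rose with all libraries (against 5.87% of all genes) and none without mock replicate 5 (against 4.46%). Upper-layer genes gave 3 and 1 of 9, among them Mef2c, a transcription factor of neuronal maturation, which differed by 0.44 ± 0.12 (SE), adjusted p = 0.018, and by 0.32 (adjusted p = 0.072) without mock replicate 5. None of the 12 inhibitory neuron markers passed in either fit, and their median difference was -0.02, or 0.07 without mock replicate 5.

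Of 18 genes of synaptic vesicles and transmitter release 9 rose (against 5.87% of all genes) and none fell with all libraries, among them Sv2b, Syt1, Snap25, Syp, Syn1 and Rab3a, and 7 of these rose without mock replicate 5 (against 4.46% of all genes). Vamp2 and Cplx2 rose with all libraries only. The median difference was 0.18, and 0.16 without it. Rab3a, a small GTPase of vesicle docking, was at 656, 747, 639, 594 and 674 TPM in NCAC and 555, 520.4, 493, 609 and 590.1 TPM in mock. NCAC replicate 4 lay within the mock range and the other 4 lay above it. The difference was 0.26 ± 0.05 (SE), adjusted p = 0.0051, and 0.28 (adjusted p = 0.0071) without mock replicate 5. Syt1, the calcium sensor of release, was at 622, 598, 536, 522 and 603 TPM in NCAC and 414, 460.2, 482, 492 and 423 TPM in mock, with no overlap and a difference of 0.34 ± 0.07 (SE), adjusted p = 0.0051, or 0.32 (adjusted p = 0.017) without mock replicate 5. Syn1, synapsin I, differed by 0.28 ± 0.06 (SE), adjusted p = 0.004, or 0.26 (adjusted p = 0.015) without mock replicate 5. These 3 genes and Sv2b passed in every fit without 1 library.

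Of 18 glutamate and GABA receptor genes 2 rose in both fits, where 5.87% and 4.46% of all genes did with all libraries and without mock replicate 5, among them the GABA-A subunit Gabra4 (0.27 ± 0.08 (SE), adjusted p = 0.033, or 0.35 (adjusted p = 0.015) without mock replicate 5), which lost its call without NCAC replicates 1, 2 or 5 or mock replicates 1, 2, 3 or 4. Of 17 voltage-gated channel genes 3 rose with all libraries, among them Scn2b and Kcnq3, by 0.23 and 0.30, and 1, Scn2b, a sodium channel beta subunit, did so without mock replicate 5. Scn2b passed in 6 of the 10 fits without 1 library and Kcnq3 in 2. Immediate early genes, which neurons induce upon activity, had a median difference of 0.48, but 1 of 18 passed (against 5.87% of all genes). This was Nr4a2 (0.42 ± 0.14 (SE), adjusted p = 0.0496, or 0.39 (adjusted p = 0.094) without mock replicate 5), and none passed without mock replicate 5. Nr4a2 passed in 3 of the 10 fits without 1 library. Egr1, an activity-induced transcription factor, was at 146, 192, 223, 148 and 147 TPM in NCAC and 68.3, 173, 136, 104 and 63.7 TPM in mock, and its adjusted p was 0.16.

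Of 12 endothelial and barrier markers 5 fell (against 2.84% of all genes) and none rose, namely Cldn5, Pecam1, Cdh5, Flt1 and Kdr. Without mock replicate 5, 4 fell (against 1.08% of all genes), with median differences of -0.32 and -0.33. Of 9 pericyte and smooth muscle markers the same 5 fell in both fits (Pdgfrb, Rgs5, Vtn, Acta2 and Myh11), with medians of -0.34 and -0.38. Pdgfrb and Rgs5 lost their calls without NCAC replicates 1, 2 or 5 or mock replicates 2 or 3. In whole tissue, fewer cells of a type and less RNA per cell cannot be told apart.

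Pecam1 (ENSMUSG00000020717, chromosome 11, 106654217 to 106750628, minus strand), the adhesion molecule of endothelial junctions, was at 12.3, 11.1, 14.7, 16.2 and 12.4 TPM in NCAC and 17.4, 18.9, 20, 16.3 and 17.7 TPM in mock. The highest NCAC library, replicate 4, lay just under the lowest mock library, replicate 4. The difference was -0.42 ± 0.07 (SE), adjusted p = 0.0007, with -0.42 (adjusted p = 0.0033) without mock replicate 5, and it passed in every fit without 1 library. Cldn5, the main claudin of the blood-brain barrier, was at 50.5, 43.3, 60.7, 46.7 and 42.9 TPM in NCAC and 80.5, 77.7, 77.5, 72 and 48.8 TPM in mock, where replicate 5 alone lay in the NCAC range. It differed by -0.53 ± 0.16 (SE), adjusted p = 0.039, and by -0.66 (adjusted p = 0.02) without that library, but lost its call without any 1 of NCAC replicates 1, 2 and 5 and mock replicates 1, 2 and 3. Flt1 and Cdh5, a VEGF receptor and the endothelial cadherin, differed by -0.42 and -0.39 (adjusted p = 0.017 and 0.012). Flt1 lost its call without NCAC replicate 2 or 5, and Cdh5 without NCAC replicate 2.

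Col4a2 (chromosome 8, 11312805 to 11449287, plus strand), a chain of the collagen IV of vascular basement membrane, was at 20.2, 13, 17.1, 24.2 and 15 TPM in NCAC and 25, 27.6, 32.9, 30 and 30.2 TPM in mock, without overlap. Its difference was -0.70 ± 0.14 (SE), adjusted p = 0.0032, and -0.69 (adjusted p = 0.0095) without mock replicate 5. Acta2, smooth muscle actin, was at 18.9, 20.7, 17.2, 37.8 and 21.6 TPM in NCAC and 37.9, 43.3, 30.9, 31.3 and 43.4 TPM in mock. Of the NCAC libraries replicate 4 alone was in the mock range, and the difference was -0.70 ± 0.17 (SE), adjusted p = 0.011, or -0.65 (adjusted p = 0.029) without mock replicate 5. Both genes passed in every fit without 1 library. Myh11, smooth muscle myosin, had the same pattern at 6.24, 5.67, 5.39, 12.1 and 5.87 TPM in NCAC and 9.91, 13.1, 11.1, 10.1 and 12.8 TPM in mock, and differed by -0.67 ± 0.16 (SE), adjusted p = 0.012, or -0.63 (adjusted p = 0.029) without mock replicate 5. Heyl, a target of Notch signalling in mural cells, differed by -0.62 ± 0.16 (SE), adjusted p = 0.017, or -0.59 (adjusted p = 0.034) without mock replicate 5. Casq2, a calcium store protein of muscle, fell without overlap, by -0.68 ± 0.19 (SE), adjusted p = 0.022, or -0.71 (adjusted p = 0.031) without mock replicate 5. Call losses occurred without NCAC replicate 2 or 5 for Myh11 and Casq2, and without NCAC replicate 1 or 5 for Heyl. Of 14 hypoxia and angiogenesis genes 4 fell (against 2.84% of all genes), Vegfa, Angpt2, Flt1 and Kdr. In the same list 1 rose (against 5.87% of all genes), Egln3, an oxygen-sensing hydroxylase (0.32 ± 0.09 (SE), adjusted p = 0.023, or 0.23 (adjusted p = 0.088) without mock replicate 5). Without mock replicate 5, Angpt2 and Flt1 fell (against 1.08% of all genes) and none rose. Angpt2, an angiopoietin of vessel remodelling, was at 1.11, 0.876, 0.799, 1.4 and 1.14 TPM in NCAC and 1.59, 1.61, 1.74, 1.69 and 2.49 TPM in mock.

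**Figure D3:**
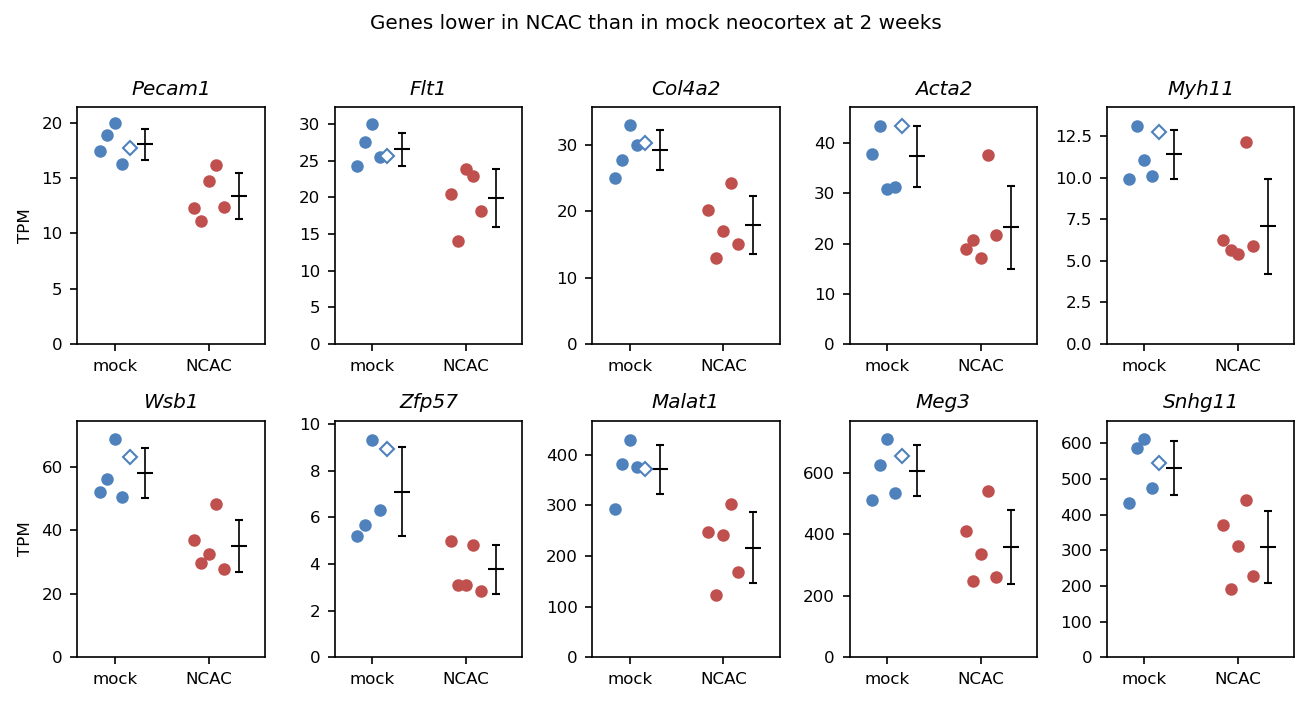
TPM of 10 genes that were lower in NCAC (red) than in mock (blue) at 2 weeks, 1 point per library, with the mean and SD of 5 libraries; the open diamond is mock replicate 5. NCAC replicate 4 is the highest NCAC library for 8 of these genes, all but Flt1 and Zfp57.

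Of 12 brain long noncoding RNAs tested 5 fell (against 2.84% of all genes) and none rose with all libraries (Malat1, Meg3, Snhg11, Neat1 and Mirg). Without mock replicate 5, Malat1, Meg3 and Snhg11 fell (against 1.08% of all genes). The median difference was -0.56, or -0.53 without that library. Malat1 (chromosome 19, 5795690 to 5802672, minus strand), a nuclear RNA of splicing speckles, was at 248, 122, 242, 302 and 169 TPM in NCAC and 293, 382, 429.7, 377 and 372 TPM in mock. NCAC replicates 2 and 5 were the lowest, and replicate 4 lay above mock replicate 1. The difference was -0.83 ± 0.24 (SE), adjusted p = 0.028, and -0.83 (adjusted p = 0.044) without mock replicate 5. Meg3, an imprinted noncoding RNA of neurons, was at 412, 249.7, 337, 541 and 263 TPM in NCAC and 512, 627, 710.3, 535 and 656 TPM in mock, with the same order of NCAC libraries at the extremes and a difference of -0.80 ± 0.22 (SE), adjusted p = 0.02, or -0.77 (adjusted p = 0.039) without mock replicate 5. Snhg11, a host gene of small nucleolar RNAs, was at 371, 192, 313, 441 and 229 TPM in NCAC and 432, 588, 611, 474 and 546 TPM in mock, and differed by -0.83 ± 0.23 (SE), adjusted p = 0.025, or -0.81 (adjusted p = 0.044) without mock replicate 5. None of these 3 passed without NCAC replicate 2 or without NCAC replicate 5, and Malat1 and Snhg11 also lost their calls without mock replicate 2 or 3.

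NCAC replicates 2 and 5 were also low for other genes that fell. Of the 15 named genes that fell most, NCAC replicate 4 was the highest NCAC library for 13, replicate 2 the lowest for 8 and replicate 5 the lowest for 4. The ratio of TPM + 1, NCAC to mock, was 0.562 to 0.652 for these 15, and the groups did not overlap for 6 (against 1.28% of all genes). Choosing the 15 by their difference in these libraries favours non-overlap. Wsb1, a subunit of a ubiquitin ligase, was at 36.9, 29.6, 32.4, 48.4 and 27.8 TPM in NCAC and 52, 56.1, 68.9, 50.3 and 63.1 TPM in mock, without overlap, a difference of -0.73 ± 0.16 (SE), adjusted p = 0.0051, or -0.70 (adjusted p = 0.016) without mock replicate 5. Zfp57, a zinc finger protein that maintains imprints, was at 4.99, 3.11, 3.11, 4.84 and 2.83 TPM in NCAC and 5.23, 5.68, 9.34, 6.32 and 8.92 TPM in mock, a difference of -0.76 ± 0.17 (SE), adjusted p = 0.007, or -0.68 (adjusted p = 0.024) without mock replicate 5. Wsb1 and Zfp57 passed in every fit without 1 library. Ftx, a noncoding RNA of the X inactivation centre, differed by -0.72 (adjusted p = 0.025), or -0.72 (adjusted p = 0.04) without mock replicate 5. Leng8, a nuclear RNA-processing factor, differed by -0.66 (adjusted p = 0.03), and Col24a1, a fibrillar collagen gene, by -0.67 (adjusted p = 0.034). Each of these 3 lost its call without NCAC replicate 2 or 5 and without mock replicate 3, and Leng8 and Col24a1 also without mock replicate 2, Col24a1 also without NCAC replicate 1. Zfhx2os (-0.79 ± 0.20 (SE), adjusted p = 0.013, or -0.79 (adjusted p = 0.025) without mock replicate 5) is antisense to Zfhx2 and is uncertain because strand use in counting is unknown; its call was lost without NCAC replicate 2 or 5. Bcl2a1b (-0.80 ± 0.25 (SE), adjusted p = 0.04, or -0.92 (adjusted p = 0.034) without mock replicate 5) has near-identical copies that can share reads, and passed in 3 of the 10 fits without 1 library.

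Of 16 clock genes 5 rose in both fits (against 5.87% and 4.46% of all genes), the repressors Ciart, Cry1 and Cry2 and the output factors Dbp and Hlf. In that loop the activators CLOCK and BMAL1 bind E-box elements and drive their own repressors and a set of output factors, and glucocorticoids help to set its phase in brain tissue. The time of day at which tissue was taken is not given. Because the loop acts through E-boxes, the 250 bases before the RefSeq start (GRCm38.p6) of the 5 genes were searched for CACGTG, which reads the same on both strands and overlaps no other motif searched. Ciart held 3 matches and Cry1 1 match, and the windows of Cry2, Dbp and Hlf held none. The bases just after the RefSeq start were found in an annotated transcript for Ciart and Cry1, but not for Cry2, Dbp and Hlf. The lack of a match in the windows of Cry2, Dbp and Hlf is therefore less certain. The motif was in 6.02% of all 32851 promoter windows of that length. Of the 16 clock genes listed 14 had a window, some more than 1, and 5 had a match. The 2 windows with a match among the genes that rose are printed 5′ to 3′ on the gene's strand, with the motif in capitals. The Ciart window is chr3:95882229-95882478 and the Cry1 window chr10:85185055-85185304, both on the minus strand.
Ciart: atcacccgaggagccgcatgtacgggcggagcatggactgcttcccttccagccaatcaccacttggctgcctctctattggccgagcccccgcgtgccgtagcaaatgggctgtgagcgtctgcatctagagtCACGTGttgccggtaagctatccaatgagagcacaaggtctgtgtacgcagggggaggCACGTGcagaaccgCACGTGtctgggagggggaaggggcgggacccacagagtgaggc
Cry1: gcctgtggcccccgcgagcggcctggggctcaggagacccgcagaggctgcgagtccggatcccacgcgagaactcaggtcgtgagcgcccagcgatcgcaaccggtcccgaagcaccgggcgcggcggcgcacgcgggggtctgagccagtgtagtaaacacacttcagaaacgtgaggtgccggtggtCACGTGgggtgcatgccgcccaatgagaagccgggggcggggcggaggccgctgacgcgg
In Ciart the matches begin 116, 58 and 44 bases before the start, and in Cry1 60 bases before it.

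Ciart, a repressor of CLOCK and BMAL1, was at 22, 25.1, 27.9, 33.6 and 28.3 TPM in NCAC and 11.7, 15, 11.3, 19.2 and 19.5 TPM in mock. The groups did not overlap, and the difference was 0.82 ± 0.26 (SE), adjusted p = 0.043, or 0.91 (adjusted p = 0.043) without mock replicate 5. Cry1, a core repressor, was at 28.9, 28.5, 22.7, 22.6 and 27.1 TPM in NCAC and 16.9, 16.8, 20.8, 16.4 and 20.2 TPM in mock, also without overlap, and differed by 0.49 ± 0.15 (SE), adjusted p = 0.036, or 0.52 (adjusted p = 0.042) without mock replicate 5. Cry2, the second cryptochrome, was at 79.8, 76, 73.2, 73.5 and 73.8 TPM in NCAC and 58.1, 63, 66.3, 64.6 and 60.2 TPM in mock and differed by 0.27 ± 0.07 (SE), adjusted p = 0.02, or 0.25 (adjusted p = 0.04) without mock replicate 5. Its NCAC libraries lay close together, and all were above the mock libraries.

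Dbp, an output factor of the loop, was at 168, 188, 213, 218 and 209 TPM in NCAC and 128, 133, 116, 155 and 162 TPM in mock, a difference of 0.52 ± 0.15 (SE), adjusted p = 0.023, or 0.58 (adjusted p = 0.025) without mock replicate 5. Hlf, its relative, was at 121, 118, 104, 109.7 and 115 TPM in NCAC and 65.8, 83.8, 91.3, 91.2 and 90.9 TPM in mock, a difference of 0.43 ± 0.10 (SE), adjusted p = 0.011, or 0.46 (adjusted p = 0.015) without mock replicate 5. The groups overlapped for neither gene. Of the 16 clock genes tested 7 had every NCAC library above every mock library, against 2.79% of all genes. The list's median difference was 0.26, or 0.29 without mock replicate 5, and the other 11 genes did not pass. Hlf passed in all 10 fits without 1 library. Ciart passed in 2 of them, Cry1 in 4, Cry2 in 7 and Dbp in 7. Each of these 4 lost its call without NCAC replicate 2 or 5. Cry1 and Cry2 lost it also without NCAC replicate 1, Cry1 without mock replicates 1, 2 or 4, and Dbp without mock replicate 3. Ciart kept it without mock replicates 4 or 5 alone.

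Glucocorticoid-responsive genes gave 1 call of 18 tested, where 5.87% of all genes rose with all libraries. Klf9, a transcription factor that glucocorticoids induce in neurons, was at 166, 164, 147, 144 and 170.0 TPM in NCAC and 93.7, 118, 128, 117 and 126 TPM in mock, without overlap. The difference was 0.44 ± 0.13 (SE), adjusted p = 0.031, and 0.47 (adjusted p = 0.036) without mock replicate 5. It lost its call without NCAC replicates 1, 2 or 5 or mock replicate 1. The other 17 genes tested did not pass in either fit, and the list's median was 0.35, or 0.38 without mock replicate 5. Sgk1, a kinase of this response, was at 45.1, 63.1, 37.6, 43.4 and 55 TPM in NCAC and 26.3, 28.4, 27.9, 31.2 and 43.6 TPM in mock, and its adjusted p was 0.11. Tsc22d3, another such target, was at 60.9, 68, 49.8, 49.4 and 63.1 TPM and 30.3, 35.3, 34.2, 41.2 and 72.3 TPM, where mock replicate 5 was the highest of all, and its difference was 0.50 ± 0.22 (SE), adjusted p = 0.14, or 0.71 (adjusted p = 0.0502) without that library.

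Of 18 glycolysis genes 8 rose with all libraries (against 5.87% of all genes), Pfkm, Aldoa, Tpi1, Gapdh, Pgk1, Pgam1, Pkm and Ldha. Without mock replicate 5, 7 rose (against 4.46% of all genes), all but Ldha, and the 2 medians were 0.15 and 0.17. Under TMM scaling 5 passed. Aldoa, the aldolase of muscle and brain, was at 1145, 1236, 1076, 1059 and 1157 TPM in NCAC and 951, 892, 913, 1064 and 1010.0 TPM in mock, a difference of 0.23 ± 0.06 (SE), adjusted p = 0.011, or 0.25 (adjusted p = 0.015) without mock replicate 5. Pkm, pyruvate kinase, differed by 0.19 ± 0.05 (SE), adjusted p = 0.022, or 0.23 (adjusted p = 0.012) without mock replicate 5. Of 18 proteasome genes 10 rose with all libraries (against 5.87% of all genes) and 11 without mock replicate 5 (against 4.46%). All 18 differences were above 0, and the medians were 0.16 and 0.19. Under TMM scaling 6 passed. Psmd2, of the regulatory particle, was at 158, 162, 145, 147 and 165 TPM in NCAC and 127, 127, 133, 131 and 151 TPM in mock, a difference of 0.21 ± 0.05 (SE), adjusted p = 0.012, or 0.26 (adjusted p = 0.0071) without mock replicate 5. Psma5, of the core particle, was at 138, 157, 126, 134 and 146 TPM in NCAC and 116, 112, 118, 124 and 123 TPM in mock, without overlap, and differed by 0.24 ± 0.06 (SE), adjusted p = 0.013, or 0.25 (adjusted p = 0.019) without mock replicate 5. Without NCAC replicate 2 or 5 neither Psmd2 nor Psma5 passed, nor did Pkm, and Aldoa was lost without NCAC replicate 2. Pkm was also lost without NCAC replicate 1 or mock replicates 2 or 3.

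Of 20 nuclear genes of the respiratory chain 5 rose with all libraries (against 5.87% of all genes) and 6 without mock replicate 5 (against 4.46%). Under TMM scaling 1 of the 20 passed. Ndufs3, of complex I, differed by 0.18 ± 0.05 (SE), adjusted p = 0.026, or 0.21 (adjusted p = 0.02) without mock replicate 5, and Atp5b, of the ATP synthase, by 0.13 ± 0.04 (SE), adjusted p = 0.043, or 0.16 (adjusted p = 0.022) without mock replicate 5. Neither passed without NCAC replicate 2 or 5 or mock replicate 2 or 3, and Atp5b was also lost without NCAC replicate 1 or mock replicate 4. Of the 13 mitochondrially encoded genes 3 fell in both fits (against 2.84% and 1.08% of all genes), mt-Co1, mt-Nd5 and mt-Cytb. All 13 differences were below 0, with a median of -0.19. Under TMM scaling 1 fell. Together these 13 made up 238700 to 290200 TPM of each NCAC library and 273000 to 321100 TPM of each mock library, so their share bears on all other TPM values. The mt-Nd5 level was 6759, 5857, 6252, 6959 and 6209 TPM in NCAC and 8098, 8098, 7671, 7167 and 7451 TPM in mock, without overlap, a difference of -0.27 ± 0.08 (SE), adjusted p = 0.033, or -0.28 (adjusted p = 0.043) without mock replicate 5. All 3 lost their calls without NCAC replicate 2 or 5 or mock replicates 1, 2 or 3, and mt-Cytb also without NCAC replicate 1.

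Of 16 heat shock and chaperone genes 3 rose with all libraries (against 5.87% of all genes), Hspa1a (0.48), Dnajb1 (0.30) and Hsp90ab1 (0.18), and 5 without mock replicate 5 (against 4.46% of all genes), which added Hsp90aa1 and Hspd1. Of 15 genes of the ER stress and integrated stress responses Asns, asparagine synthetase (0.24 ± 0.06 (SE), adjusted p = 0.017, or 0.26 (adjusted p = 0.019) without mock replicate 5), and Herpud1, of ER-associated degradation (0.29 ± 0.09 (SE), adjusted p = 0.035, or 0.39 (adjusted p = 0.011) without mock replicate 5), rose in both fits, and Dnajb9 without mock replicate 5. None of these calls held in every fit without 1 library, and all were lost without NCAC replicate 1, 2 or 5 where they passed with all libraries. Of 20 cholesterol synthesis genes none passed with all libraries, and Fdft1, squalene synthase, passed without mock replicate 5. Of 79 cytosolic ribosomal protein genes 1 fell, Rpl37 (-0.22 ± 0.07 (SE), adjusted p = 0.037, or -0.24 (adjusted p = 0.035) without mock replicate 5), which has near-identical copies elsewhere in the genome and is uncertain, and the median was -0.05.

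**Figure D4:**
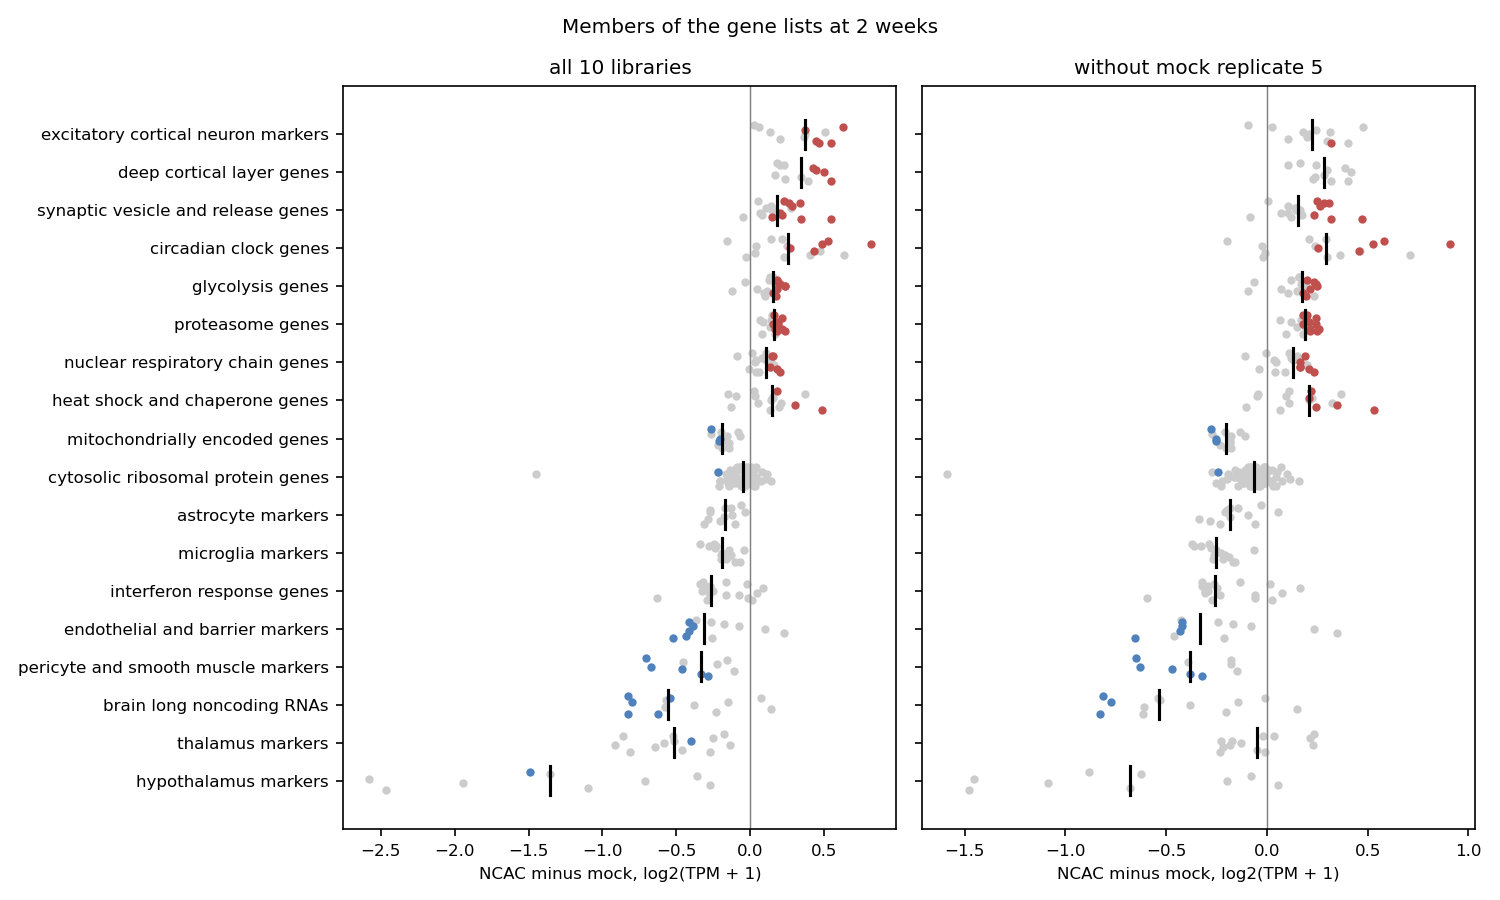
NCAC minus mock difference on the log2(TPM + 1) scale of each tested member of 18 gene lists, with all 10 libraries (left) and without mock replicate 5 (right); red and blue points had an adjusted p under 0.05 (higher and lower in NCAC), grey points did not, and the black bars are medians. The x axes of the panels differ. Thalamus markers move from a median of -0.52 to -0.05 between the panels, and hypothalamus markers from -1.35 to -0.68. Pericyte and smooth muscle markers stay at -0.34 and -0.38.

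Glial, immune and inflammatory lists gave almost no calls. None of 15 microglia markers, 12 astrocyte markers, 12 myelin markers, 18 interferon response genes, 14 cytokine and acute inflammatory genes, 10 complement genes, 11 MHC class I and antigen presentation genes and 10 reactive astrocyte genes passed in either fit. Of all genes 5.87% rose and 2.84% fell with all libraries, and 4.46% and 1.08% without mock replicate 5, so few calls were due in lists of this size. The median differences of these lists ranged from -0.26 for interferon response genes to -0.09 for cytokine genes. Without mock replicate 5 they ranged from -0.27 for complement genes to 0.005 for myelin markers. All 15 microglia differences were below 0. Cspg4, the NG2 proteoglycan of oligodendrocyte precursors, fell in both fits, at 7.28, 6.99, 8.59, 9.45 and 6.45 TPM in NCAC and 10.5, 10.6, 9.44, 8.47 and 12.2 TPM in mock (-0.36 ± 0.09 (SE), adjusted p = 0.013, or -0.30 (adjusted p = 0.043) without mock replicate 5), and was lost without NCAC replicate 2 or 5. The other 9 precursor markers did not pass. Ccr1 and Cd33, a chemokine receptor and a lectin of myeloid cells, and Cyth4 were called only without mock replicate 5, at -0.70, -0.44 and -0.60, against -0.61, -0.31 and -0.47 with all libraries.

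Of the 47 lists, choroid plexus markers had the highest median difference. All 12 markers had differences above 0, with a median of 1.24, or 1.32 without mock replicate 5, and for 7 of the 12 every NCAC library lay above every mock library (against 2.79% of all genes). With all libraries 3 rose (against 5.87% of all genes), Kl, Kcnj13 and Cldn2, and without mock replicate 5 only Kl (against 4.46%). Kl, klotho, was at 9.43, 6.84, 7.39, 5.08 and 8.46 TPM in NCAC and 4.5, 1.54, 1.31, 1.52 and 3.43 TPM in mock, and differed by 1.35 ± 0.42 (SE), adjusted p = 0.038, or 1.47 (adjusted p = 0.043) without mock replicate 5. Kcnj13, a potassium channel of this epithelium, was at 15.2, 12.6, 9.67, 10.7 and 14.2 TPM in NCAC and 6.68, 2.15, 2.23, 3.56 and 4.22 TPM in mock, and differed by 1.56 ± 0.49 (SE), adjusted p = 0.04, or 1.61 (adjusted p = 0.052) without mock replicate 5. Prr32, Kcne2, Wfdc2, Steap1 and Msx1, which were called only with mock replicate 5, are not on the list and had differences of 1.45, 1.22, 1.18, 1.00 and 0.75. The fit of the compared groups alone called 7 genes. Among them were Kcnj13, Aqp1 and Enpp2 of the list, and Prr32, Wfdc2 and Msx1. Neither Kl nor Kcnj13 kept its call without NCAC replicates 1, 2 or 5 or mock replicates 2 or 3, and Kl was also lost without mock replicate 4. The amount of choroid plexus taken with each piece of cortex was not measured, and its part in these rises was not tested.

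Thalamus, hypothalamus and pituitary markers were highest in mock replicate 5. Without it the median difference was -0.05 for thalamus markers but -0.68 for hypothalamus markers, with 8 of 9 hypothalamus differences below 0. The summed hypothalamus markers were 122 and 178 TPM in mock replicates 1 and 2, against 24.5 to 68.6 TPM in NCAC. Mock replicates 3 and 4 lay within the NCAC range, at 59.8 and 39.9 TPM. Of 13 thalamus markers Lef1 fell with all libraries and none without mock replicate 5, and of 9 hypothalamus markers Gal fell, again with all libraries only. The neuropeptide gene Gal was at 0.894, 3.97, 1.68, 3.06 and 1.72 TPM in NCAC and 11.3, 3.94, 4.3, 2.22 and 45.5 TPM in mock, with an all-library difference of -1.49 ± 0.46 (SE), adjusted p = 0.035, and -0.88 (adjusted p = 0.17) without mock replicate 5. Calb2 (calretinin) and Ret, a receptor tyrosine kinase, were called only with that library, at 70.8, 69.5, 108, 73.2 and 261 TPM and 3.08, 2.03, 3.28, 2.15 and 18.2 TPM in mock. The ciliary genes Dynlrb2 and Tekt1 were the reverse case: mock replicate 5 held 8.88 and 4.35 TPM, above the other mock libraries, and both were called only without it, at 0.82 and 0.55. Nefm and Olfm3, a neurofilament and an olfactomedin, were likewise called only without it, at 0.41 and 0.40, as were Col6a1, Fxyd5 and Chp2, at -0.69, -0.54 and -0.52. Of other region lists, Rspo3 of the hippocampus list and Calb1 of the cerebellum and upper-layer lists rose in both fits. Rspo3 passed in all 10 fits without 1 library and Calb1 in 4. None of 11 striatum, 6 olfactory or 10 meningeal fibroblast markers passed. The striatum list had a median difference of 0.25, or 0.24 without mock replicate 5, with 10 of 11 differences above 0. Its sum was 1264 to 2451 TPM in NCAC, highest in replicate 4, and 1213 to 2079 TPM in mock, highest in replicate 1.

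The CAC group of the same week allows a direct comparison of the tumours that do and do not cause cachexia. Both comparisons share the mock libraries, so their values are given side by side and only the direct NCAC minus CAC contrast bears on a difference. That contrast takes no mock mean, although mock libraries enter the shared estimate of spread. It called 0 of the 14494 genes (0%) in limma, where 616 had an unadjusted p under 0.05 (647 without mock replicate 5), and 0 with voom, where 721 did. CAC against mock gave 533 higher (3.68%) and 87 lower (0.6%) genes. For Sv2b the NCAC and CAC differences from mock were 0.54 and 0.50, for Mal2 0.51 and 0.49, for Slc17a7 0.46 and 0.43, and for Pecam1 -0.42 and -0.30. For clock genes the values were 0.82 and 0.23 for Ciart, 0.52 and 0.06 for Dbp and 0.49 and 0.10 for Cry1. The direct NCAC minus CAC differences of these 3 were 0.59, 0.46 and 0.39, and none passed. Of the other called clock genes, Hlf was at 91.8 to 110 TPM in CAC, above every mock library of week 2. Cry2 was at 65.2 to 76.9 TPM in CAC, which overlapped the mock libraries of week 2. CAC against mock gave 0 calls in the clock list, with a median difference of 0.12.

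No gene passed the same comparison at a later week. NCAC against mock gave 0 calls in limma at 4, 6 and 8 weeks, and 89, 953 and 636 genes had an unadjusted p under 0.05. At 4 weeks 4 of the 5 NCAC libraries carry lane 3 and the mock libraries lane 4, and at 6 and 8 weeks both groups carry lane 4. The change of the difference, week 2 against the mean of weeks 6 and 8, passed for 160 genes (1.1%). The difference was higher at week 2 for 152 of them and lower for 8. Among the 632 genes called at week 2 in both fits were 124 of the 160. The change contains the week 2 difference itself, so that overlap is in part built in. Without mock replicate 5 no gene passed in limma, and 3120 had an unadjusted p under 0.05. None passed either without any 1 of NCAC replicates 1, 2 and 5 or mock replicate 1 of week 2, NCAC replicate 4 of week 6 or mock replicate 3 of week 8, and 647 passed without NCAC replicate 3 of week 2. Of the 30 named genes, which were picked for large week 2 differences, 8 passed: Mthfd1l, Sstr4, Sv2b, Pde1a, Chrm1, Mal2, Krt73 and Zfp57. For Sv2b the change was 0.59 ± 0.13 (SE), adjusted p = 0.036, with differences of 0.54 at week 2, -0.10 at week 6 and -0.00 at week 8. For Chrm1 it was 0.57 ± 0.11 (SE), adjusted p = 0.026, and for Pecam1 -0.33 ± 0.09 (SE), adjusted p = 0.048. Zfp57 changed by -0.81 ± 0.21 (SE), adjusted p = 0.043. In the clock list Hlf (0.48 ± 0.12 (SE), adjusted p = 0.044) and Cry2 (0.37 ± 0.09 (SE), adjusted p = 0.037) passed.

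In comparisons added after the data were seen, mock at week 2 differed from mock at weeks 6 and 8 in 2744 genes (18.9%), 280 higher and 2464 lower at week 2, and NCAC at week 2 differed from NCAC at weeks 6 and 8 in 1 gene (0.0069%). The same comparison in CAC gave 1973 genes, 403 higher and 1570 lower at week 2. All 3 cross from lane 3 to lane 4, so week and lane cannot be told apart in any of them. The named genes were picked for their week 2 difference from mock. That choice favours week 2 mock means that stand apart from later ones, and no share over all genes is given. For all 15 named genes that rose, the mean of mock at week 2 was below each later mock mean, and the NCAC mean at week 2 lay within the later mock means for 3 and above them for 12. Of the 15 that fell, mock at week 2 was above each later mock mean for 13, and NCAC at week 2 was below them all for 15. Sv2b was at 94.1 to 136 TPM in mock at week 2, at 148 to 201 TPM in the mock libraries of weeks 4 to 8 and at 137 to 176 TPM in CAC at week 2. Pecam1 was at 16.3 to 19.96 TPM in mock at week 2, at 13.3 to 16.6 TPM in later mock libraries and at 13.8 to 15.5 TPM in CAC at week 2.

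**Figure D5:**
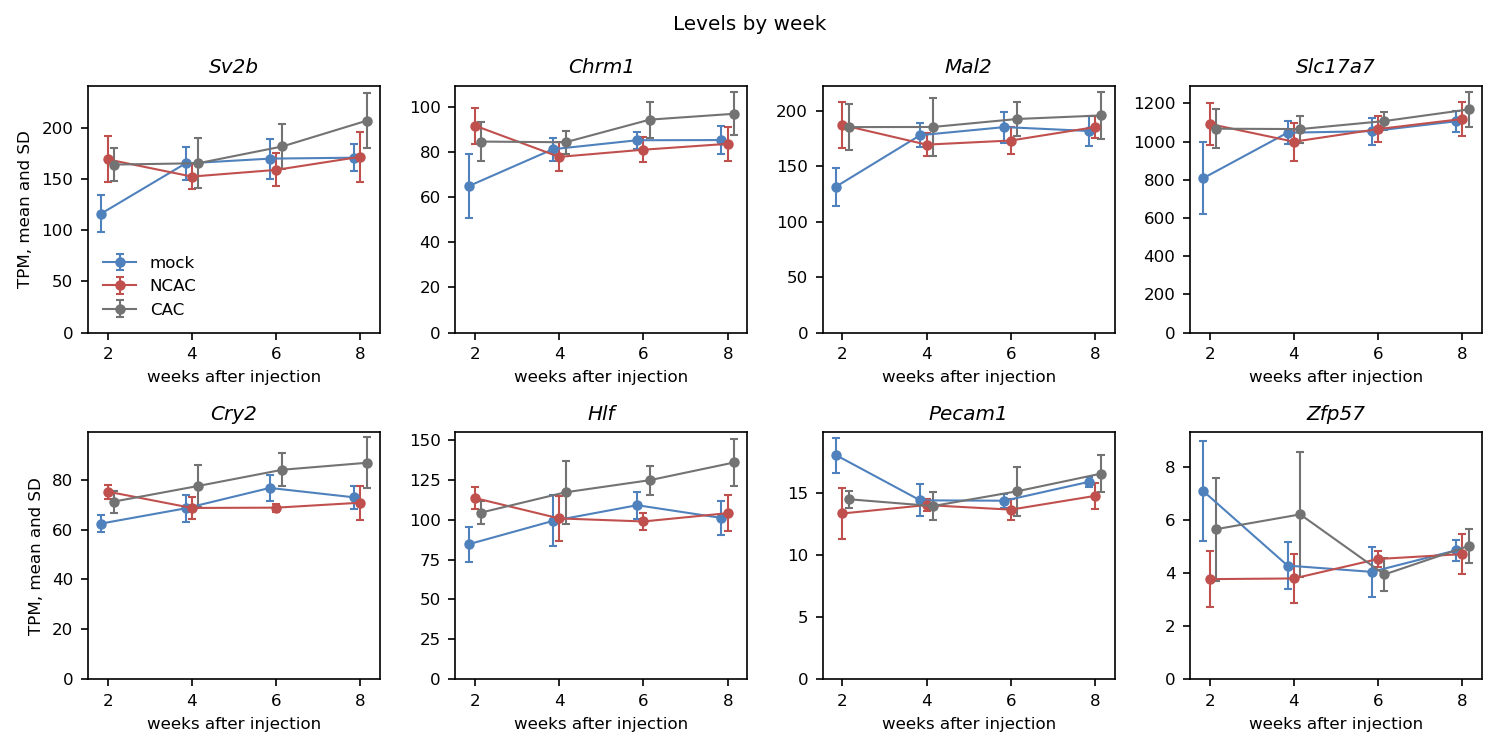
Mean TPM and SD of mock (blue), NCAC (red) and CAC (grey) libraries at 2, 4, 6 and 8 weeks for 8 genes, with 5 libraries per point and 7 for CAC at 8 weeks. The mock mean at week 2 is the lowest mock mean for Sv2b, Chrm1, Mal2, Slc17a7, Cry2 and Hlf and the highest for Pecam1 and Zfp57. All 8 genes were called between NCAC and mock at week 2, which favours this order.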

How the data were processed

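Stranded mRNA libraries (TruSeq) of neocortex were sequenced on an Illumina NovaSeq, per the labels' protocols. The deposited table holds TPM values (transcript abundance corrected for length and depth) computed by the authors, for 47643 genes in 62 libraries, of which 22257 genes were at 0 throughout. Per the submitters' processing notes, reads were placed on mm10. The software for alignment and quantification and its strand setting were not given in the sources used here. The labels' protocol text also names another cell line and sampling time, which match no group. Of the symbols, 27 are written as dates. Gene positions are from GENCODE vM21 and promoter windows from RefSeq (GRCm38.p6). Depth was estimated from the steps between low TPM values, 86.4% of which lay within 0.05 of a whole read, and such estimated reads are not counts.

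Values were tested as log2(TPM + 1) with limma 3.58.1 in R 4.3.3, in a linear model of 12 groups (50 residual degrees of freedom) with a mean-variance trend, for the 14494 genes that averaged 1 TPM or more over all libraries. P-values were adjusted by Benjamini-Hochberg over these genes, with 0.05 as the threshold, and differences of low genes are understated by the pseudocount. Every adjusted p in the text is from limma. Alternatives were a pseudocount of 0.1, no filter, TMM scaling, a robust variance prior, a block for the replicate number, a fit of the compared groups alone, voom on estimated reads, other weeks and leaving out each library. Leaving out mock replicates 3 and 5 and NCAC replicate 4 together was added after the data were seen. Members and lists were chosen with earlier results of these data known. Named genes were the 15 higher and 15 lower with the largest difference among those called with and without mock replicate 5, the 10 largest called in only 1 of these fits in each case, and, for a list with a call, its 4 or fewer members of lowest p. Further called members of a list, the genes called in the fit of the compared groups alone, and Alb are named outside this rule, after their values were seen. Some genes are not reported here.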

Additional observations from a re-analysis of the deposited data

Results flagged for a closer look

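In groups of 5 libraries, 1 library lay far from the other 4 in the following cases, out of 104 groups tested; chance alone gives such cases in about 5% of groups. Mock replicate 5 had 12.45 TPM of Mthfd1l against 7.68 to 8.91 TPM in the other mock libraries, and 10.27 TPM of Cdkl4 against 14.1 to 15.2 TPM. Its summed markers were 603 TPM for thalamus, 1195 TPM for hypothalamus, 2811 TPM for pituitary, 541.1 TPM for oligodendrocyte precursors (others 405.0 to 436 TPM) and 72.64 TPM for ependymal cells (others 28.7 to 32.9 TPM).

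NCAC replicate 4 had 37.75 TPM of Acta2 against 17.2 to 21.6 TPM in the other NCAC libraries, 12.14 TPM of Myh11 against 5.39 to 6.24 TPM, and 4.296 TPM of Zfhx2os against 1.96 to 2.51 TPM. Its cerebellum markers summed to 246.1 TPM against 287 to 302 TPM. Astrocyte markers summed to 2994 TPM in NCAC replicate 3 and to 3153 TPM in mock replicate 3, each the highest of its group. Mock replicate 1 had 2079 TPM of striatum markers against 1213 to 1361 TPM, and 1429 TPM of choroid plexus markers against 233 to 461 TPM.

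For 8 of the 30 named genes the NCAC minus mock difference at week 2 differed from that of weeks 6 and 8 by limma's test with all libraries. The 30 were picked for large week 2 differences, which enter this change. The change in log2(TPM + 1) was 0.6463 for Mthfd1l, 0.7399 for Sstr4, 0.5896 for Sv2b, 0.5952 for Pde1a, 0.5688 for Chrm1, 0.5424 for Mal2, 0.5021 for Krt73 and -0.81 for Zfp57. None passed without mock replicate 5.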

How the results depend on the processing

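NCAC against mock at 2 weeks gave 851 higher and 411 lower genes. Without the filter on level 503 were higher; with TMM scaling 815 were lower, and with voom 863; the fit of the compared groups alone gave 7 and 0; and without mock replicates 3 and 5 and NCAC replicate 4 there were 476 and 87. Leaving out 1 library gave 96 to 1258 higher and 33 to 807 lower genes. The change from week 2 to weeks 6 and 8 passed for 160 genes, for 5 without the filter, 42 with TMM, 28 with voom, 430 with weeks 4, 6 and 8, 106 without the 3 libraries, and 0 to 647 when 1 library was left out. The cause of these shifts was not tested. NCAC against CAC gave 0 genes in every setting run. Of 2661 pairs of a named gene and a setting, 2035 kept direction and side of the threshold, 562 lost the call, 64 gained one and 0 reversed. The replicate number as a replicate block gave 853 higher and 352 lower genes, 185 for the change across weeks and 0 against CAC. Deviations of same-numbered libraries correlated at -0.19, 0.05, 0.15, -0.20 and 0.14. NCAC replicates 3 and 5 correlated best with the mock library of their own number, and replicates 1, 2 and 4 with another. No clear pairing by number was seen, and this check cannot exclude one. Fits on all 10 libraries and without mock replicate 5 shared 632 calls.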
